A study of Drosophila melanogaster with 48 samples.

Results

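Line 379 is 1 of 8 numbered fly lines whose adult transcript levels were measured on Affymetrix Drosophila arrays, and it is set here against the other 7. Its members are the 6 arrays whose titles name line 379, of 48 arrays in all; the other 42 come from lines 158, 304, 362, 380, 774, 786 and 859. Line 379 and each of the other lines have 2 arrays from flies raised as larvae on the standard cornmeal-molasses food, 2 from larvae raised on that food enriched with tomato paste, and 2 from larvae raised on it with 9% ethanol. All adults of all 8 lines were moved to the standard food after eclosion and kept at 25 °C with 12 hours of light and 12 of darkness. RNA came from whole bodies. What the line numbers stand for is not said in the labels, and neither is the sex. The labels state an age of 3 to 5 days for 4 arrays, of which 0 belong to line 379. Whether the 2 arrays of a line on a medium are from separate cultures is not stated, and p-values based on how they differ may measure technical variation only.

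Lines of one fly species that are kept apart carry different alleles, and some of these change how much of a transcript is made. Gene families that meet the environment, such as the cytochromes P450 and glutathione S-transferases that modify and conjugate foreign compounds, the gut proteases and the odorant-binding proteins, have many members that are close in sequence and often differ between strains. An array measures a transcript through short probes, so a sequence difference under the probes and a difference in transcript level give the same kind of signal, and for the genes below these cannot be told apart. In whole bodies, fewer cells of a type and less RNA per cell cannot be told apart either.

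Signals are given as log2 of the deposited signal, where 1 unit is a doubling. The 2 arrays of line 379 correlated over 11261 probe sets at 0.990 on standard medium, 0.981 on ethanol medium and 0.915 on tomato medium, within the range of 0.783 to 0.991 over all lines and media. The titles of 15 arrays are spelled with a hyphen before the array number, 1 of them the tomato array 3 of line 379. An eggshell index was averaged over the log2 signals of 9 genes of the chorion and vitelline membrane. On ethanol it was 6.88 and 8.40 in line 379, against a median of 12.99 in the other lines. Among those, ethanol array 2 of line 158 stood at 5.59, and all the rest at 12.34 to 13.65. The index also differed between the tomato arrays of line 379, at 13.93 on array 1 and 10.94 on array 3.

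The first comparison asks which transcripts differ in line 379 whatever the larval food. Of 11261 probe sets, 620 (5.51%) were higher and 588 (5.22%) lower in line 379 than the mean of the other 7 lines at an adjusted p under 0.05 (limma on means of each line and medium, with medium as a term), together 10.7% of those tested, with a median size of 0.65 log2 units. Counted by gene, with 1 probe set for each, 507 were higher (5.38%) and 494 lower (5.24%) of 9419, together 10.6%. This test sets the difference against how unevenly lines behave from medium to medium. It does not set it against the spread between lines. Line as a random block allows for that spread only by a correlation shared over all probe sets. With it the same contrast called 3 probe sets higher (0.0266%) and 25 lower (0.222%). The count also turned on the tomato arrays: 2754 probe sets were called without tomato array 1 of line 379, 794 without tomato array 3, and 6061, 405 and 220 without the tomato, the ethanol and the standard medium.

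A smaller set had line 379 at the edge of all 8 lines on every medium. In 87 probe sets (0.773%) line 379 passed the test and had the highest mean of the 8 lines on standard, tomato and ethanol medium, and in 106 (0.941%) it had the lowest, which is 70 genes (0.743%) and 96 genes (1.02%); together they are 1.71% of the probe sets. Without tomato array 1 of line 379 this total of 193 was 462. Among the probe sets kept, the low side went further. On it 45 genes lay more than 1 log2 unit below the mean of the other lines, against 19 more than 1 above. More than 3 below lay 7 genes, against 1 above. Probe sets were kept by their mean over arrays, of which 42 are from other lines. A gene dim only in line 379 could thus be kept, and one bright only there dropped. Of the lowest probe sets 19 had a line 379 mean under the filter level. Of the highest, 1 had an other-line mean under it. The filter's part in the difference between the sides was not tested. In 8 probe sets (0.071%) all 6 arrays of line 379 lay above all 42 others, and in 21 (0.186%) all 6 lay below. Every other line also had more probe sets with all its arrays below (24 to 44) than above (2 to 23).

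**Figure D1:**
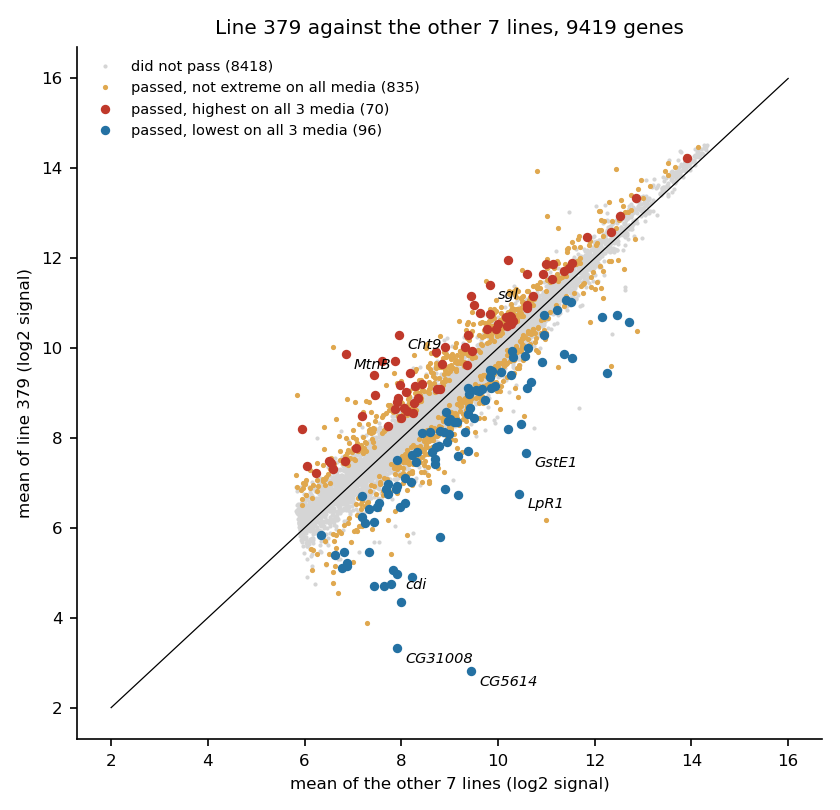
Each point is 1 of 9419 genes, with the mean log2 signal of line 379 on the vertical axis and the mean of the other 7 lines on the horizontal axis; the line marks equal means. Red points passed the test and were highest in line 379 on all 3 media (70 genes), blue points were lowest (96), orange points passed without being extreme on every medium (835), and CG5614 and CG31008 lie farthest below the line among the extremes.

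Each of the other lines was put through the same comparison. Line 379 had 193 probe sets that passed and were extreme on all 3 media, the lowest count of the 8 lines with all arrays in; without tomato array 1 of line 379 it had 462, above the counts with all arrays of every line but 380. The others had 265 (line 774), 278 (859), 295 (158), 303 (786), 315 (362), 337 (304) and 725 (380). By the test alone line 379, at 1208, followed line 380 with 3532 and line 362 with 1351, and the other 5 lines lay between 970 and 1044. These 8 contrasts share arrays, so the counts are not independent of each other.

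**Figure D2:**
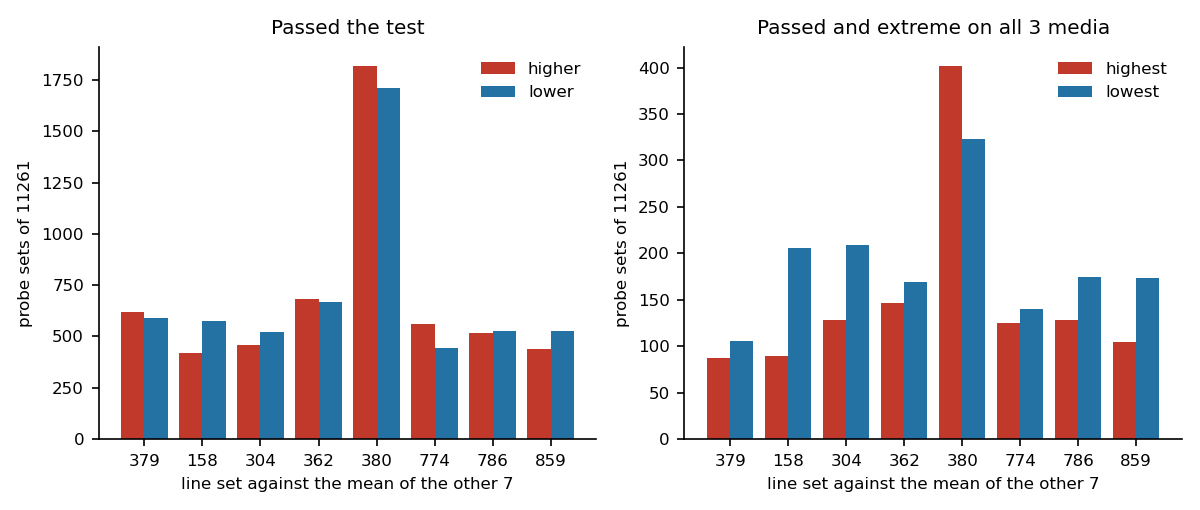
Bars give the number of 11261 probe sets called higher (red) or lower (blue) in each line against the mean of the other 7 (left), and the number also highest or lowest of the 8 lines on all 3 media (right). Line 379, at the left, had 620 and 588 calls, and 87 and 106 that were also extreme on every medium.

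The 15 genes with the largest differences among those highest in line 379 were led by MtnB. This metallothionein, which binds copper and zinc, had log2 signals of 9.98 and 9.90 on the standard food, 10.22 and 10.49 on tomato food and 9.17 and 9.40 on ethanol food in line 379, against 0.69 to 10.29 with a median of 7.07 over the 42 other arrays. All 6 arrays of line 379 lay above the median of the others, but the ranges overlapped. The difference was 3.01 log2 units, an 8.06-fold higher signal (SE 0.42, limma adjusted p = 0.000103). The next line, 304, averaged 8.99, and line 362 averaged 2.29.

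Cht9, of the chitinase family, had 10.63 and 10.71 on the standard food, 10.80 and 9.50 on tomato food and 10.14 and 10.04 on ethanol food in line 379, against 5.35 to 9.24 in the other lines with a median of 8.24. Every array of line 379 lay above every other array. The difference was 2.35 (SE 0.17, adjusted p = 4.97e-08), or 5.09-fold. lectin-33A, a C-type lectin, ran from 9.11 to 9.95 in line 379, against 5.73 to 9.71 in the others, with overlap at tomato array 1 of line 379, and differed by 2.12 (SE 0.19, adjusted p = 4.89e-07). Npc2d, of the NPC2 family of sterol-binding proteins, ran from 10.69 to 11.33 in line 379, against 7.42 to 10.65, without overlap (difference 1.46, SE 0.22, adjusted p = 0.000268). Its relative Npc2h went the other way and was lowest in line 379, at a mean of 9.12 against 10.59 (difference -1.47, SE 0.13, adjusted p = 4.16e-07).

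The signal of sgl, which encodes the UDP-glucose dehydrogenase that supplies glucuronic acid for proteoglycans, was 11.27 and 11.19 on the standard food, 11.26 and 11.51 on tomato food and 11.56 and 11.64 on ethanol food in line 379, against 8.53 to 10.66 in the others with a median of 9.86. The groups did not overlap. The difference was 1.58, or 2.99-fold (SE 0.14, adjusted p = 7.88e-07), and it held with line as a random block (adjusted p = 0.00668). CG32109 ran from 9.20 to 9.72 in line 379, against 7.50 to 8.75, also without overlap (difference 1.26, SE 0.10, adjusted p = 1.74e-07; 0.000396 with line as a random block). These were the only 2 of the 15 highest genes to pass that stricter fit.

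Several genes that were highest in line 379 were neighbours in the order of the tested genes, among them proteases of the same family. Untested genes may lie between genes called adjacent here. CG15254 and CG7631, adjacent astacin-type metalloproteases, were both highest in line 379, by 1.98 (SE 0.16, adjusted p = 1.74e-07) and 0.96 (SE 0.13, adjusted p = 0.000112). CG15254 averaged 9.41 in line 379, against 7.849 to 8.865 in lines 304, 380, 774 and 786 and 5.80 to 6.08 in lines 158, 362 and 859. It did not pass with line as a random block (adjusted p = 0.731). Semp1, a seminal metalloprotease of that family on the other side of CG15254, was lowest, at a mean of 6.10 against 7.26 (difference -1.16, SE 0.14, adjusted p = 2.16e-05). CG10477 and yip7, adjacent genes for trypsin-like serine proteases, were both highest, by 1.75 (SE 0.14, adjusted p = 1.60e-07) and 0.33 (SE 0.09, adjusted p = 0.0238). CG10477 ran from 11.47 to 12.69 in line 379, against 5.63 to 12.01 in the others, so the arrays overlapped at the top. Its mean was 11.95 in line 379, against 11.13 to 11.58 in lines 380, 774, 786 and 859. It was 10.53 in line 158, 8.825 in line 362 and 6.53 in line 304 (adjusted p = 0.876 with line as a random block). CG14219 and CG14205, also adjacent, were higher by 2.25 (SE 0.38) and 1.83 (SE 0.28), and CG14219 differed between the tomato arrays of line 379, at 6.62 on array 1 and 9.21 on array 3. The other genes of the 15 were CG33307, CG12310, CG9555, CG3706 and CG11211, with differences of 1.21 to 1.71 and adjusted p of 2.79e-06 to 0.000503. In CG3706 line 380 stood apart at a mean of 4.31, while line 379 had 8.50 and the rest 7.29 to 7.91. In CG11211 line 304 had 6.37, line 379 9.18 and the rest 7.67 to 8.76.

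Of the 166 highest or lowest genes, 11 lay in 6 adjacent pairs in the order of 9396 tested genes, and 5 of those pairs moved the same way. Whether this is more pairs than random placement would give was not tested. The pairs not yet named are Cox11, an assembly factor of cytochrome oxidase, with CG31915, both lowest, and CG13901 with CG13887, both highest.

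Among the probe sets kept, the lowest genes in line 379 reached larger differences than the highest. CG5614 had log2 signals of 2.60 and 1.29 on the standard food, 1.89 and 2.09 on tomato food and 3.86 and 5.14 on ethanol food in line 379, against 8.13 to 10.31 with a median of 9.48 over the other 42 arrays. No array of line 379 came within 2 log2 units of the lowest other array. The difference was -6.64 (SE 0.33, limma adjusted p = 4.48e-10), or 99.7-fold lower. CG31008 had 4.57 and 4.42 on the standard food, 2.41 and 1.96 on tomato food and 2.92 and 3.67 on ethanol food in line 379, against 6.92 to 8.80 with a median of 7.84, again without overlap (difference -4.60, SE 0.29, adjusted p = 8.17e-09). Both genes lie in line 379 under the mean level of 5.90 at which probe sets were kept, where MAS5 signals are close to background and the size of a fold is uncertain. Of the 106 lowest probe sets, 19 had a line 379 mean under that level. Among the named lowest genes, CG3457, CG5815, CG13658, Prx6c, cdi, Cyp309a2, CG7567 and Boh1 also lay under that level in line 379, at means of 4.36 to 5.79. The same limit holds for the size of their differences below.

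LpR1, a lipophorin receptor that takes up circulating lipoprotein, stayed above that level. It had 7.04 and 6.75 on the standard food, 6.07 and 6.73 on tomato food and 7.01 and 6.96 on ethanol food in line 379, against 9.84 to 11.89 with a median of 10.42 in the other lines. The gap between the groups was wide on every medium. The difference was -3.68, or 12.8-fold lower (SE 0.15, adjusted p = 3.26e-11; 2.13e-10 with line as a random block). A weaker probe set of LpR1 averaged 6.44 in line 379, against 6.85, and did not pass (difference -0.41, SE 0.21, adjusted p = 0.226).

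GstE1, a glutathione S-transferase, had 7.38 and 7.76 on the standard food, 7.32 and 8.07 on tomato food and 7.96 and 7.55 on ethanol food in line 379, against 9.52 to 11.82 with a median of 10.47. The groups did not overlap, and the signal was 7.43-fold lower (difference -2.89, SE 0.17, adjusted p = 2.01e-09). Cyp309a2, a cytochrome P450, ran from 3.46 to 5.53 in line 379, against 6.36 to 9.02, and was lower on standard medium than on the other 2 (difference -2.94, SE 0.26, adjusted p = 6.18e-07). Prx6c, a peroxiredoxin that reduces peroxides, ran from 4.80 to 6.93, against 6.75 to 12.49, with overlap at 1 ethanol array (difference -3.01, SE 0.31, adjusted p = 2.86e-06). Its mean was 5.79 in line 379, 7.175 to 7.73 in lines 158, 380, 774 and 786, and 8.89 in line 362. Lines 859 and 304 stood higher, at 10.78 and 11.76 (adjusted p = 0.489 with line as a random block). Miox, the myo-inositol oxygenase that opens the inositol ring, ran from 7.92 to 8.95, against 8.39 to 13.14, and line 859 with a mean of 8.65 was close to line 379 (difference -2.16, SE 0.16, adjusted p = 5.75e-08).

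CG13658, of the ecdysteroid kinase-like family, ran from 3.56 to 5.76 in line 379, against 5.82 to 9.45, without overlap (difference -3.03, SE 0.17, adjusted p = 2.01e-09). Of its relatives, CG13659 was also lowest in line 379 (difference -0.996, SE 0.167, adjusted p = 0.00065), while CG11892 was highest (difference 0.73, SE 0.21, adjusted p = 0.0297). cdi, which encodes a protein kinase, ran from 4.13 to 5.35 in line 379, against 6.24 to 8.72 (difference -2.95, SE 0.16, adjusted p = 1.01e-09). CG5815 ran from 4.25 to 5.55, against 6.59 to 10.12 (difference -3.32, SE 0.19, adjusted p = 1.97e-09). Neither gene's groups overlapped. CG31872, a lipase gene, and CG7567 also had all 6 arrays of line 379 below the others (differences -2.45 and -2.78). For CG31872 lines 158 and 859 stood high, at means of 10.51 and 11.15, against 8.27 to 8.73 in the rest and 6.73 in line 379. The rest of the 15, CG3457, CG34166 and Boh1, differed by -3.63 (SE 0.54), -2.80 (SE 0.41) and -2.72 (SE 0.42) and overlapped the other lines. CG34166 stood at 13.61 on tomato array 3 of line 379, against 9.42 on tomato array 1 and 7.91 to 9.08 on the other media.

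**Figure D3:**
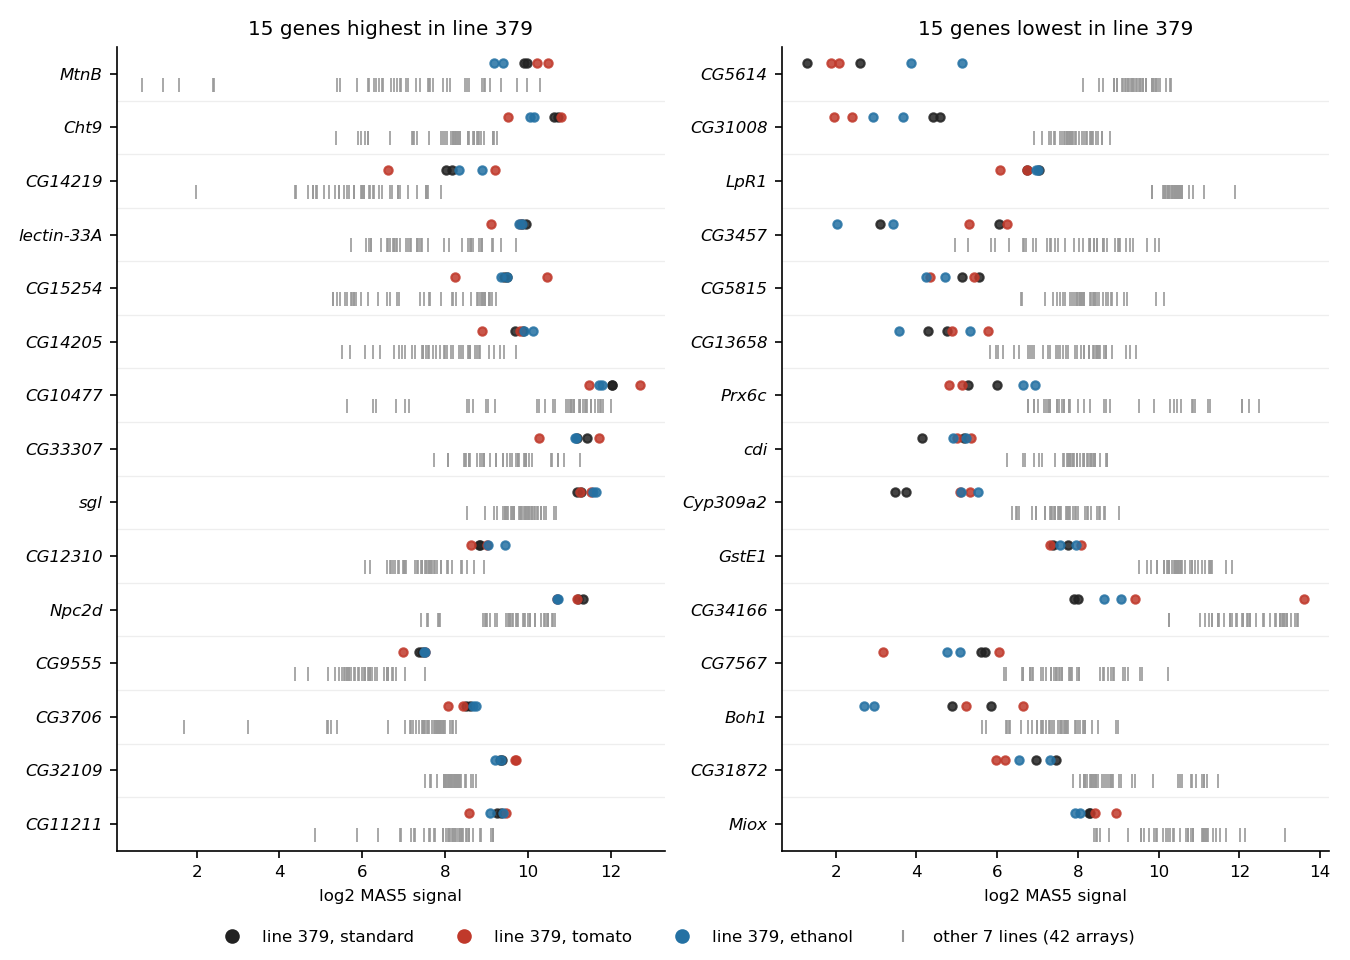
The 15 genes highest (left) and lowest (right) in line 379, with log2 MAS5 signal on the horizontal axis; dots are the 6 arrays of line 379 by larval medium and grey ticks below them the 42 arrays of the other 7 lines. For CG5614, CG31008, LpR1 and GstE1 no dot reaches a tick, while for MtnB and CG10477 the dots overlap the upper ticks.

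With line as a random block, 28 probe sets passed and all 28 were among the 193, 21 genes by their chosen probe set. This fit used the same correlation within lines, 0.3618, for every probe set. A probe set whose own lines spread more widely can still pass, so these are not tests of 1 line against 7. Beside the 10 of the 30 genes above that held (sgl, CG32109, CG5614, CG31008, LpR1, CG5815, CG13658, cdi, Cyp309a2 and GstE1), the 11 others were all lower in line 379. They were CG7800 (-2.03), Sfp24Bb (-2.11), XRCC1 of DNA strand break repair (-1.89), CG44008 (-1.73), nebu (-1.46), e(r) (-1.43), bon, a chromatin cofactor (-1.06), CG42676 (-1.02), PIG-O of GPI anchor synthesis (-0.96), CG17036 (-0.92) and meigo (-0.74). MtnB did not pass this fit (adjusted p = 0.775), and the adjusted p of the other 19 genes of the 30 that missed it lay between 0.062 and 0.876.

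Some genes were extreme only through a weaker probe set. A probe set of dl, which encodes the NF-kappaB factor Dorsal, averaged 3.12 in line 379, against 8.65 in the others, a difference of -5.53 (SE 0.22, adjusted p = 1.70e-11). The brighter probe set of dl averaged 9.62 in line 379, against 9.81, and did not pass (adjusted p = 0.437). RN-tre, a Rab GTPase-activating protein, differed by -2.91 (SE 0.22, adjusted p = 9.83e-08) on its weaker probe set and by -0.23 (adjusted p = 0.292) on its brighter one. The direction was opposite for ergic53, a cargo receptor between endoplasmic reticulum and Golgi, with 1.23 (SE 0.12, adjusted p = 1.18e-06) and -0.04 (adjusted p = 0.736). In all, 9 extreme probe sets belonged to a gene represented by a brighter one, and in 0 of the 9 did the brighter one pass in the same direction. Of 10 extreme genes with a further tested probe set, 5 had it in the same direction, called in obe and Fhos. Whether these splits reflect transcript isoforms, probe sequence or background was not tested.

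Detoxification genes moved in both directions. Of 67 cytochrome P450 genes tested (81 on the array), 11 rose and 10 fell in line 379, 31.3% against 10.6% of all genes, and the median difference was -0.00 against -0.01 over all genes. Among those that fell, Cyp6w1 ran from 9.99 to 10.87 in line 379, against 9.55 to 13.96 (difference -1.33, SE 0.15, adjusted p = 1.15e-05), Cyp6a23 differed by -1.28 (SE 0.12, adjusted p = 1.69e-06), and Cyp12a5 (-0.89) and Cyp313a1 (-1.23) were lowest on all 3 media. Cyp6w1 averaged 10.58 in line 379, but 10.07 in line 380 and 10.73 and 10.82 in lines 158 and 859, against 12.51 to 13.72 in the rest. Line 380 was close for Cyp6a23, at 8.57 against 8.44 in line 379. Among those that rose, Cyp6a17 differed by 1.19 (SE 0.19, adjusted p = 0.000463), Cyp28a5 by 1.06, Cyp6a2 by 0.98 and Cyp4d20, highest on all 3 media, by 0.93. Cyp6g1, known for insecticide resistance, ran from 14.26 to 14.71 in line 379, against 13.74 to 14.56, and rose by 0.33 (SE 0.10, adjusted p = 0.0357; 0.833 with line as a random block).

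Of 32 glutathione S-transferase genes, 5 rose and 4 fell (28.1%, against 10.6% of all genes). The falls were in GstE1, GstE5 (difference -1.64, SE 0.11, adjusted p = 3.11e-08), GstE11 (-1.39) and GstT3 (-0.33), and the rises in GstO3 (1.04), GstE10 (0.81), GstE13 (0.69), GstD3 (0.47) and GstD9 (0.30). GstE13 averaged 10.01 in line 379 and 9.57 to 9.95 in lines 158, 304, 362, 380, 774 and 786, and it was line 859 that stood apart, at 6.60. GstE11 averaged 8.125 in line 379, close to 8.25 and 8.35 in lines 774 and 859. GstE5 averaged 7.25 in line 379 and 7.29 in line 786, against 8.30 to 9.84 in the other 6 lines, so line 379 was not alone there. Of 23 UDP-glycosyltransferases, 3 rose and 3 fell (26.1%), with Ugt37D1 up by 1.06 and Ugt37A2 down by 0.90. Line 380 stood lower than line 379 for Ugt37A2 (6.71 against 7.475). Probes of such close relatives can share hybridisation, and this was not tested.

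Of 47 genes for digestive proteases and glycosidases tested, 13 rose, 5 fell and 29 did not pass (38.3% called, against 10.6% of all genes). The median difference was 0.23, and 0.0986 after quantile normalisation. All 13 rises were proteases except LManI, a lysosomal mannosidase gene, and 4 of the 5 falls were maltases (Mal-A1, Mal-A7, Mal-A8 and Mal-B1, by -0.84 to -1.91), the other being the protease gene Jon66Ci (-1.48). The largest rises did not set line 379 alone apart. Ser12 averaged 10.03 in line 379, against 9.76, 9.28 and 9.15 in lines 304, 859 and 774 and 4.22 to 5.03 in the other 4 lines (difference 3.45, SE 0.30, adjusted p = 4.79e-07). Jon74E averaged 13.93 in line 379, against 13.54 to 13.85 in lines 158, 380, 774 and 859 and 6.83 to 7.05 in lines 304, 362 and 786 (difference 3.13, SE 0.12, adjusted p = 1.21e-11; 0.876 with line as a random block). The midgut index, the mean of 4 gut genes, ran from 11.56 to 12.40 in line 379, against 10.49 to 13.05, so it overlapped fully, and its part in the list's count was not tested. The lysozymes LysP (1.09, SE 0.19, adjusted p = 0.000901) and LysS (0.98, adjusted p = 0.0312) rose of 3 tested (66.7% called).

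Secreted proteins of the male accessory gland, which pass to females in seminal fluid, included 6 rises and 3 falls of 31 tested (29.0%, against 10.6% of all genes). Sfp24Bb ran from 9.26 to 11.25 in line 379, against 11.61 to 13.31, without overlap, and was lowest on all 3 media (difference -2.11, SE 0.20, adjusted p = 9.12e-07). Acp98AB averaged 13.98 in line 379 and 13.36 to 13.83 in lines 158, 304, 380 and 774, against 10.45 to 10.95 in lines 362, 786 and 859 (difference 1.56, SE 0.17, adjusted p = 6.53e-06). Sfp53D fell by 1.05 (SE 0.14, adjusted p = 6.71e-05), and the other calls were rises in Sfp33A3, Sfp38D, Sfp65A, lectin-46Ca and antr and a fall in Acp26Ab. Line 304 stood lower for Sfp53D, at 6.765 against 6.99 in line 379, and line 859 higher for Sfp33A3, at 11.33 against 11.13. The index of 5 accessory gland genes was 12.93 and 12.90 on ethanol medium in line 379, above 11.78 to 12.65 in the others, and 12.81 and 12.85 on standard medium, against 11.73 to 12.82, but 12.46 and 11.71 on tomato medium, against 11.50 to 12.76. Its part in these differences was not tested.

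Odorant-binding proteins carry odour molecules to receptors or occur in other body fluids, and the series was about olfactory behaviour. Of 30 tested, 5 rose and 2 fell (23.3%, against 10.6% of all genes). Obp57a rose by 1.26 (SE 0.13, adjusted p = 4.27e-06), averaging 11.74 in line 379, close to 11.78 in line 859, against 9.40 to 11.09 in the other 6. Its neighbours by name Obp57b and Obp57c rose by 0.37 and 0.48, Obp56d by 0.94 and Obp56i by 1.03, while Obp49a fell by 1.18 (SE 0.15, adjusted p = 4.57e-05) and Obp51a by 1.56. Obp49a averaged 8.435 in line 379 and was lower in line 158, at 8.256. lush, which carries a male pheromone, ran from 6.31 to 7.91 in line 379, against 6.67 to 8.75, and did not pass (difference -0.32, adjusted p = 0.265). Orco, the shared odorant co-receptor, ran from 5.37 to 7.25, against 5.36 to 7.48, and did not pass (0.13, adjusted p = 0.676). Of 166 odorant and gustatory receptor genes on the array it was the only one bright enough to test.

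The shares called in the next lists stand against 10.6% of all genes. A call there sets line 379 against the mean of the other 7 lines, and single lines could lie as high or as low. Both metallothioneins that passed of 4 (50%) were rises, MtnB and MtnD (0.81, SE 0.24, adjusted p = 0.0384). MtnD averaged 10.61 in line 379, below 11.43 in line 304 and 10.86 in line 362, and 7.13 (line 786) to 10.55 in the rest. MtnA and MtnC did not pass (0.12 and 0.28). Of 16 antimicrobial peptide genes (18.8% called), BomS2 (0.96, adjusted p = 0.00072) and BomT3 (0.61) rose and Listericin fell (-0.91). BomS2 averaged 13.26 in line 379 and 12.98 to 13.18 in lines 304, 362, 380, 786 and 859, against 11.25 in line 774 and 9.40 in line 158. Line 859 was close to line 379 for BomT3 (11.37 against 11.47) and Listericin (8.89 against 8.77). Of the 16, 11 had a lower mean in line 379, and the list median was -0.27. Of 13 blood cell genes (15.4% called), PPO2, a prophenoloxidase of crystal cells, ran from 6.89 to 8.50 in line 379, against 7.15 to 10.36, and was lowest on all 3 media (difference -1.67, SE 0.31, adjusted p = 0.00169), and Sr-CI, a scavenger receptor, fell by 0.80. Of 10 clock genes (30% called), the repressor cwo rose (0.59, SE 0.09, adjusted p = 0.00019) and cry (-0.49) and Pdf (-0.73) fell. Pdf averaged 5.86 in line 379 and 5.82 in line 158, and cry 9.33 in line 379 and 9.34 in line 304. In the insulin and nutrient list of 19 (21.1% called), InR, the insulin receptor, fell by 1.26 (SE 0.21, adjusted p = 0.000541) and slif by 0.55, while AkhR and Pdk1 rose by 0.71 and 0.32. InR averaged 6.95 in line 379, but 6.81 in line 362 and 7.33 in line 786, against 8.30 to 9.00 in the rest.

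Among 75 respiratory chain genes 7 rose, by 0.39 to 0.91, and 0 fell, which is 9.33%, against 10.6% of all genes. The list median was 0.35 on the standard food, -0.08 on tomato food and 0.62 on ethanol food. Mitochondrial ribosomal proteins gave 3 rises and 3 falls of 69, with mRpL23 highest and mRpL54 and mRpS34 lowest on all 3 media. In cuticle genes there were 1 rise (Cpr49Ag, 1.76) and 2 falls of 33, in phototransduction 1 rise (ninaD, 1.17) and 1 fall (cry) of 13 (15.4%), and in proteasome subunits 1 fall (Prosbeta6) of 37. ninaD averaged 10.53 in line 379, close to 10.49 and 10.34 in lines 304 and 362, while line 380 stood apart at 6.68. Hormone genes had 1 rise (EcR, 0.55) of 13, contractile genes 1 (sls, 0.68) of 20 and neuronal genes 1 (DAT, 1.06) of 19, while small RNA silencing had 1 fall (vret, -0.97) of 15. For EcR line 380 stood higher, at 7.62 against 7.435 in line 379. By this test 0 passed of 45 testis, 40 cytoplasmic ribosomal, 23 female germ line, 16 heat shock, 9 desaturase and elongase, 6 peptidoglycan recognition and 3 yolk protein genes, and of 1 Turandot gene.

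**Figure D4:**
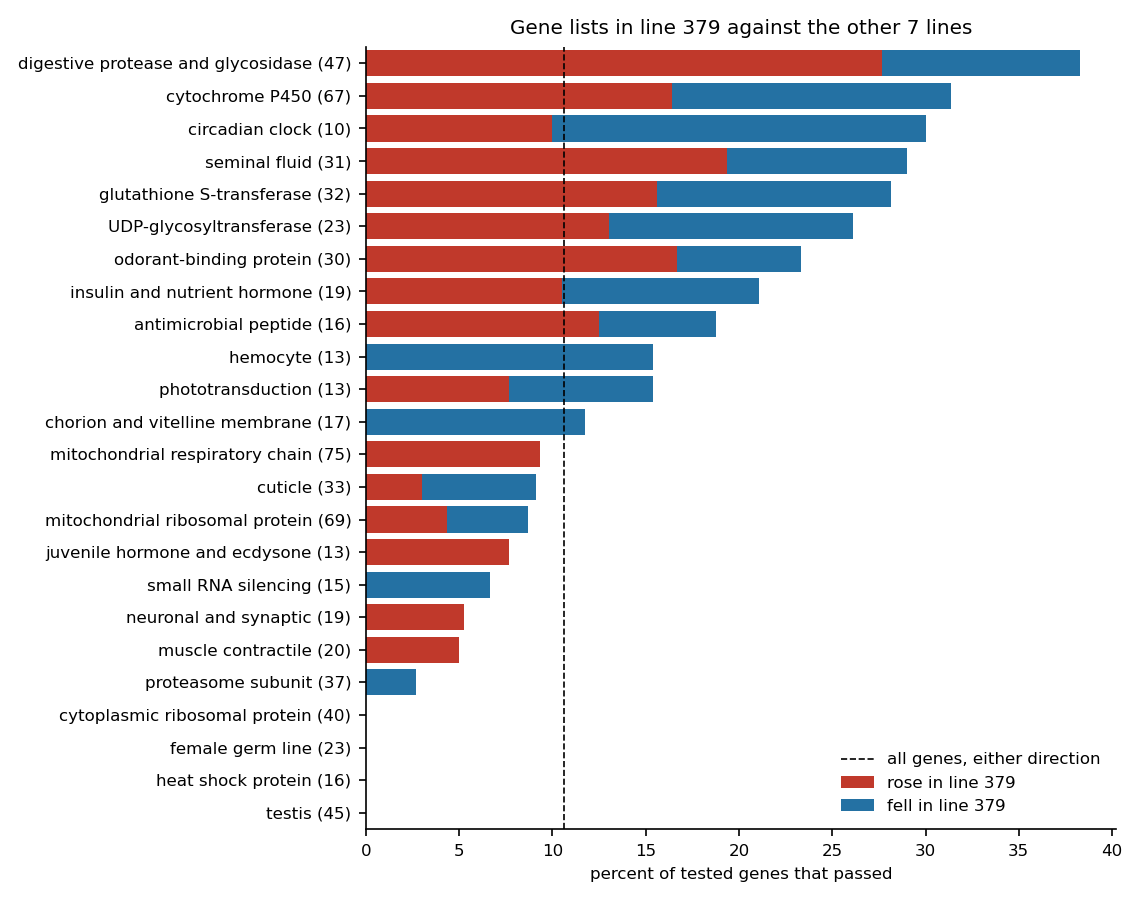
For each gene list with at least 10 tested genes (number in brackets), the bar gives the percent of its genes that rose (red) or fell (blue) in line 379 at an adjusted p under 0.05; the dashed line is the 10.6% of all 9419 genes. Digestive enzymes (38.3%) and cytochromes P450 (31.3%) had the largest shares and 4 lists had 0.

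Over 17 chorion and vitelline membrane genes the median of line 379 minus the other lines was -0.35 on the standard food, 1.44 on tomato food and -3.84 on food with ethanol, while 0 of the 17 passed the test of the ethanol or the tomato response. The tomato value mixes arrays of both title spellings: the eggshell index of line 379 was 13.93 on the array titled with a space and 10.94 on the one with a hyphen, and in the other lines it was 12.54 to 12.98 on 4 tomato arrays with a space and 4.17 to 13.03 on 10 with a hyphen. On the tomato arrays Cp18, a chorion protein, stood at 14.34 on array 1 and 6.61 on array 3, and on ethanol at 5.98 and 6.04, against 6.06 to 14.17 over all arrays of the other lines. Averaged over media, Cp15 (-2.49, SE 0.75, adjusted p = 0.039) and Cp18 (-2.75, SE 0.85, adjusted p = 0.0465) fell and 15 did not pass. Female germ line genes had medians of -0.37, 0.64 and -1.35 on standard, tomato and ethanol medium, and testis genes had medians of 0.33, -0.61 and 0.50. The yolk protein index, from 13.89 to 14.27 in line 379, against 12.44 to 14.65, did not stand apart. The part of these tissues in other differences of line 379 was not tested.

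**Figure D5:**
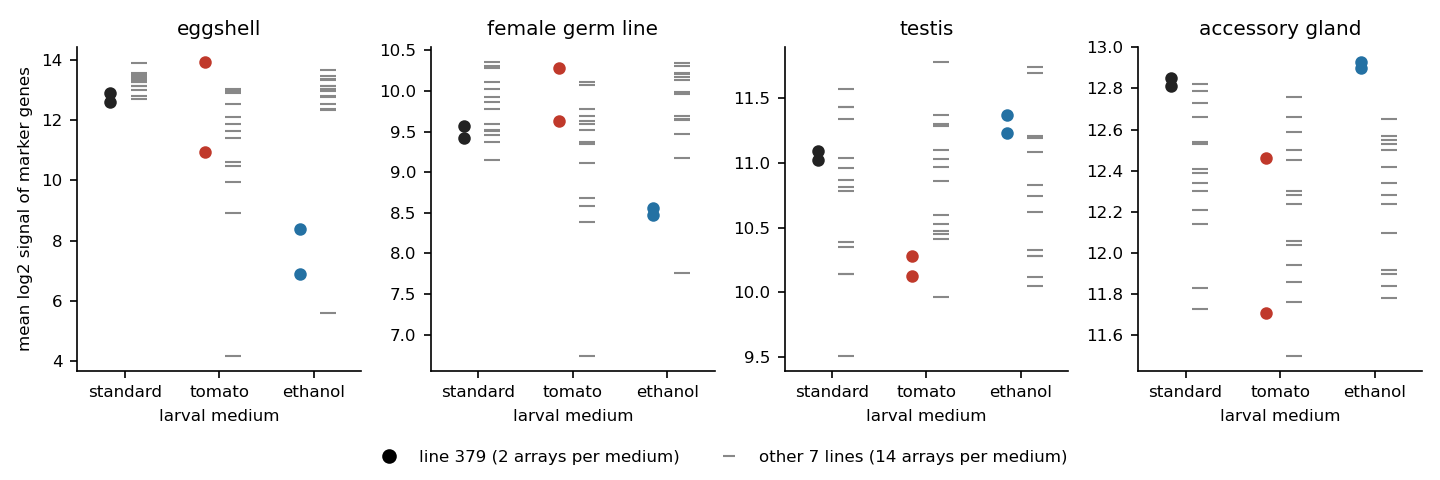
Mean log2 signal of marker genes of 4 tissues on each array by larval medium; coloured dots are the 2 arrays of line 379 and grey dashes the 14 arrays of the other 7 lines. On ethanol medium line 379 lies low for eggshell (6.88 and 8.40) and above all other arrays for accessory gland (12.93 and 12.90).

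The next comparison asks whether ethanol in the larval food changed line 379 differently from the other lines, as ethanol minus standard in line 379 less the mean of that change over the other 7. No probe set passed of 11261 (0%) with limma on single arrays, and 533 had an unadjusted p under 0.05, where 563 are 5% of those tested. The 5 genes with the smallest p, at adjusted p of 0.0896 to 0.307, are given as values. Psf1, of the GINS complex of DNA replication, had 4.52 and 3.39 on ethanol and 6.23 and 6.38 on standard medium in line 379, a change of -2.35, against changes of -0.60 to 0.24 in the other lines. bap, a homeobox gene of visceral muscle, had 4.39 and 4.31 on ethanol and 6.63 and 6.68 on standard medium, a change of -2.31, against -0.69 to 0.22. CG5614 changed by 2.55, against -0.16 to 0.61, within the low range given above. The other 2 were CG15127 (1.85, SE 0.41) and SerRS, the seryl-tRNA synthetase (-0.62, SE 0.14). The median difference in response was -2.96 over chorion and vitelline membrane genes, 0 of which passed, and -0.02 over all genes.

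The same comparison for tomato medium called 11 probe sets, all lower in line 379 (0.0977%), and 2773 had an unadjusted p under 0.05. Wnt6, a signalling ligand, had 2.49 and 4.97 on tomato and 6.59 and 6.29 on standard medium in line 379, a change of -2.71, against -0.79 to 1.23 in the other lines (difference -2.66, SE 0.54, limma adjusted p = 0.047). Vha36-2, a subunit gene of the vacuolar proton pump, had 3.85 and 5.64 on tomato and 6.86 and 6.998 on standard medium, a change of -2.18, against -0.51 to 0.83 (difference -2.44, SE 0.43, adjusted p = 0.0186). In both genes line 379 changed more than any other line, and the tomato arrays differed from each other by more than the standard ones. CG31008, already the second lowest gene on average, changed by -2.31, against -0.93 to 0.71 (difference -2.37, SE 0.39, adjusted p = 0.0186). nis (-2.02), CG34274 (-1.93) and CG5111 (-1.77) completed the 6 largest, and the remaining 5 were TTLL1B, PH4alphaNE2, Rpt3R, Mst27D and eIF3d2 (-1.13 to -1.49). The line 379 tomato means of Wnt6 (3.73), Vha36-2 (4.75), CG31008 (2.19) and CG5111 (5.12) lay under the filter level of 5.90. Signals there are close to background, and the size of these changes is uncertain. nis (7.295) and CG34274 (6.31) lay above it.

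The testis index was 10.13 and 10.28 on tomato medium in line 379, against 9.97 to 11.78 with a median of 10.92 in the others, and 11.02 and 11.09 on standard medium, against 9.51 to 11.57. Testis genes had a median tomato response of -0.98 in line 379 less the other lines, against -0.05 over all genes, and 1 of the 45, Mst27D, passed. Chorion and vitelline membrane genes had a median of 2.05, and 0 passed. Their part in the 11 calls was not tested. The count itself was unstable: it was 0 without either standard array of line 379, 210 without tomato array 3 of line 379, 871 without the tomato array 2 of line 158 and 1979 without line 158.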

How the data were processed

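The deposited intensities are linear MAS5 signals computed by the authors, per the submitters' processing notes, with no version given there. On every array the trimmed mean lay between 500.009 and 500.016, and the median signal between 84.2 and 160.2. Detection calls were not used. Signals under 1 were raised to 1 and log2 was taken, without normalising between arrays. Of 18769 probe sets (183 controls left out), the 60% with the highest mean, 11261, were kept. Of the 18769, 13647 had 1 symbol, 402 several and 4720 none; 13544 matched the RefSeq table (Release 6 plus ISO1 MT), used for names and gene order. The brightest probe set stood for a gene.

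limma 3.58.1 (R 4.3.3) was fitted to the 24 means with line and medium as terms, an intensity trend and 14 residual degrees of freedom. Responses used single arrays with 24 residual degrees of freedom. Calls were at a Benjamini-Hochberg adjusted p under 0.05. Named were the 15 largest highest and 15 largest lowest genes, the 6 largest responses each way (the 5 smallest p where under 5 passed), and up to 4 members of each of 31 lists by p, and always lush, Orco and Cyp6g1; genes beyond these were chosen after their values were seen. The members and lists were chosen with earlier results of these data known. Scripts were tested on simulated data. Sequences of probes and genes were not used here.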

Additional observations from a re-analysis of the deposited data

Results flagged for a closer look

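In 7 of 40 groups of 6 values examined, 1 array of line 379 lay far from the other 5 by Dixon's criterion at 95%, which chance alone gives in about 1 of 20 groups. In 5 of the 7 it was tomato array 1. On that array lectin-33A stood at 9.11, against 9.78 to 9.95 on the other 5 arrays of line 379 (gap 0.804 of the range), CG14205 at 8.88, against 9.69 to 10.11 (0.662), CG9555 at 6.99, against 7.37 to 7.51 (0.725), LpR1 at 6.07, against 6.73 to 7.04 (0.676), and the hemocyte index of 3 genes at 7.87, against 8.52 to 8.91 (0.626). cdi stood at 4.13 on standard array 1, against 4.91 to 5.35 (0.636). CG34166 stood at 13.61 on tomato array 3, against 7.91 to 9.42 (0.736).

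The response to tomato medium differed between line 379 and the mean of the other 7 lines, by a test of the difference itself, in Wnt6 (-2.66), Vha36-2 (-2.44), CG31008 (-2.37), nis (-2.02), CG34274 (-1.93) and CG5111 (-1.77), in log2 units. These calls were unstable. The 11 calls of this test became 0 without line 380 or line 786, 0 in the upper 40% of probe sets, 4 with quantile normalisation and 3 with median centring.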

How the results depend on the processing

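No named gene that passed changed the sign of its difference under any alternative run on it. The 30 genes with the largest extremes all remained called under 26 of the 30 fits run on them; 28 did with single arrays and line 379 against the rest, 26 without standard medium and 10 with line as a random block, and the upper 40% filter tested 15, all called. For line 379 against the other lines, 1208 calls became 648 with single arrays and line 379 against the rest, 28 with line as a random block, 1977 with the error within combinations, 2149 with title style as a block, 658 in the arrays titled with a space, 1854 with the eggshell index (an alternative chosen after seeing the data), 220, 6061 and 405 without standard, tomato and ethanol medium, and 794 to 2754 leaving out 1 array. The 193 highest or lowest became 112 without standard and 2770 without tomato medium, 1158 on standard medium alone, 29 where all 6 arrays had to lie beyond the other 42, and 142 to 462 leaving out 1 array. The ethanol response, with 0 calls, gave 1 with quantile normalisation, 2 with median centring, 3 with title style as a block, 2 without line 362 and 0 to 3 leaving out 1 array, the 3 without ethanol array 1 and 2 without standard array 1 of line 379. The 11 tomato response calls became 4 with quantile normalisation, 3 with median centring, 6 without filter, 0 in the upper 40%, 7 with 16 added before the log, 33 with title style as a block, 1979, 4, 120, 0 and 0 without lines 158, 304, 362, 380 and 786, and 0 to 871 leaving out 1 array, where 18 of 48 arrays moved the count by over 1.5 times: it was 0 without either standard array of line 379, 6 or 7 without standard arrays 2 of line 304 and 1 of lines 380, 786 and 859 and tomato arrays 3 of line 304 and 2 of line 786, and 36 to 871 without standard arrays 1 of line 304 and 2 of lines 362 and 380, tomato arrays 2 of line 158, 1 of line 362 and 3 of lines 379, 380 and 774, and either ethanol array of line 158. Array number as a replicate block gave 2560 calls for the line, 205 highest or lowest, 0 for ethanol and 5 for tomato. Arrays of the same number did not deviate together, with a median correlation of -0.02 over 112 pairs of combinations (-0.77 to 0.71), so the numbers were not taken to pair arrays. The causes were not tested. Quantile normalisation turned the small medians of the cytoplasmic ribosomal (0.13 to -0.02), desaturase (0.17 to -0.01), P450, hormone, yolk and mitochondrial ribosomal lists; 2 arrays per combination limit precision.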
